A study of Mus musculus with 6 samples.

Results

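The cytosolic ribosome of the mouse is built from ribosomal RNA and a large set of proteins, whose genes are named Rpl for the large subunit and Rps for the small subunit. Here 61 such genes were followed through 2 stages of spermatogenesis, among 19938 genes that had a single-gene transcript cluster on the array. Members were the genes whose symbol begins with Rpl or Rps and a digit, together with Rplp0, Rplp1, Rplp2 and Rpsa, without the Rps6k kinases, pseudogene symbols and a further pair of large-subunit genes that the rule leaves out and that were not analysed here, and each gene was read from its cluster of highest mean. Of the 61, 53 encode core proteins of the cytosolic ribosome (32 of the large subunit, stalk included, and 21 of the small subunit) and 8 are paralogs or genes that only share the name: Rpl39l, Rpl3l, Rpl7l1, Rps27l, Rps4l, Rps19bp1, Rps23rg1 and Rpl32l. All 61 lay at log2 6 or more on each of the 6 arrays, so no member was lost to the filter on dim genes. The symbol rule matches 87 protein-coding genes of RefSeq, of which 60 are members, 20 lay only in clusters that list several genes and 7 lay in no listed cluster. The remaining member, Rps4l, is a transcribed pseudogene in RefSeq. The label holds for the 53 core genes and not for all 61.

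The arrays were of round spermatids (RS) of Rnf8-KO males (1 array), RS of wild-type (WT) males (1 array), pachytene spermatocytes (PS) of Rnf8-KO males (2 arrays) and PS of WT males (2 arrays), all C57BL/6. The numbers in the sample titles leave room for 2 more RS arrays, not analysed here, so each RS value of a genotype is that of 1 array. PS are cells in meiotic prophase, and RS are the haploid cells that follow the meiotic divisions. Rnf8 encodes a ubiquitin ligase that marks chromatin around DNA breaks and, in meiosis, on the X and Y. Per the labels, each fraction was sedimented through BSA from 3 to 4 males at a stated enrichment above 95%. The sources used here give neither the allele of the knockout nor the age of the animals. They do not tie the 2 arrays of a PS group to separate preparations, so the spread behind each p-value may be technical.

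Ribosomal protein genes are among the most strongly transcribed genes of growing cells. Their mRNAs start with a run of pyrimidines at the cap, the TOP motif, through which growth signalling controls how well they are translated, and the proteins are made in equal numbers because each ribosome holds one copy of nearly all of them. Male germ cells transcribe little from the X chromosome during the pachytene stage, and several X-linked ribosomal protein genes have autosomal copies that are used in the testis, Rpl39l among them. Spermatids make the proteins of the sperm from mRNA that is largely stored before use.

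The fractions differed in markers of their own stages. Markers counted as lower or higher in this paragraph had an adjusted p under 0.05 in the limma fit between the stages described below. Of 13 tested pachytene markers, 10 were lower in RS, and of 15 round spermatid markers, 12 were higher. The 1 cluster for Rnf8, which also lists a readthrough gene, had a log2 intensity of 7.5 in KO RS against 7.78 in WT RS, and of 7.86 and 8.05 in KO PS against 8.51 and 8.86 in WT PS. Markers of other testis cells differed in part between the stages. The summed linear intensity of 9 Leydig markers lay between 1994 and 2339.7 in RS and between 6351.7 and 9031.9 in PS, with 7 of the 9 lower in RS, and that of 18 Sertoli markers lay between 7238.1 and 8160 in RS and between 10570 and 12852.3 in PS, with 9 lower and 1 higher. The sum of 10 macrophage and blood markers lay between 4606.7 and 4759.2 in RS and between 2218.6 and 2585.8 in PS (4 higher). Aif1, the brightest of these 10, also had their largest difference (log2 1.39). It stood at 11.50 in KO RS and 11.51 in WT RS, against 10.41 and 10.11 in KO PS and 9.84 and 10.07 in WT PS. This sum without Aif1 was not computed. The sum of 12 peritubular and vessel markers lay between 4121.5 and 5158.4 in RS and between 2789.5 and 3376.5 in PS (2 higher), but without the matrix gene Dcn it overlapped, between 2573 and 3067.4 in RS and between 2474.8 and 3098.1 in PS. The sum of 18 spermatogonial markers overlapped as well, between 5771.1 and 6549.1 in RS and between 6214.9 and 7083.1 in PS (3 higher, 1 lower). All values in the data lie above 0, so that alone does not show that a marker was expressed. Of the Leydig markers, Hsd3b1 lay at 5.53 in KO RS and 5.60 in WT RS, under the log2 6 of the filter on dim genes. The part of all these markers in the results below was not tested. In such fractions fewer cells of a type and less RNA per cell cannot be told apart.

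Most ribosomal protein genes did not pass the test between the stages. In the additive fit of genotype and cell type (limma, Benjamini-Hochberg adjustment over all genes tested, threshold 0.05), 11 of 61 members passed (18.033%), against 34.9% of the 17925 genes tested. Of these 11, 2 were higher in RS (17.8% of all genes tested) and 9 were lower (17.1%), and the other 50 did not pass. The median log2 difference, RS minus PS, was -0.03 over the members and -0.06 over all genes tested, and that of the members turned sign, to 0.014, with each gene's dimmest cluster in place of its brightest. A difference under 0.25 in size was found for 43 members (70.492%), against 52.184% of all genes tested, and 5 members exceeded 0.5. Standard errors lay between 0.10 and 0.18. Both RS arrays lay above all 4 PS arrays for 5 members (24.1% of all genes tested) and below them for 16 (26.4%), while the stages overlapped for 40. The median log2 intensity of the members was 11.21 in KO RS and 11.15 in WT RS, against 11.22 and 11.06 in KO PS and 11.22 and 11.00 in WT PS, so the medians of the stages overlapped. Replicate PS arrays differed too: array 1 lay above array 2 in both genotypes for 23 of 61 members (17.2% of all genes tested) and below it in both for 1 (26.7%).

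**Figure D1:**
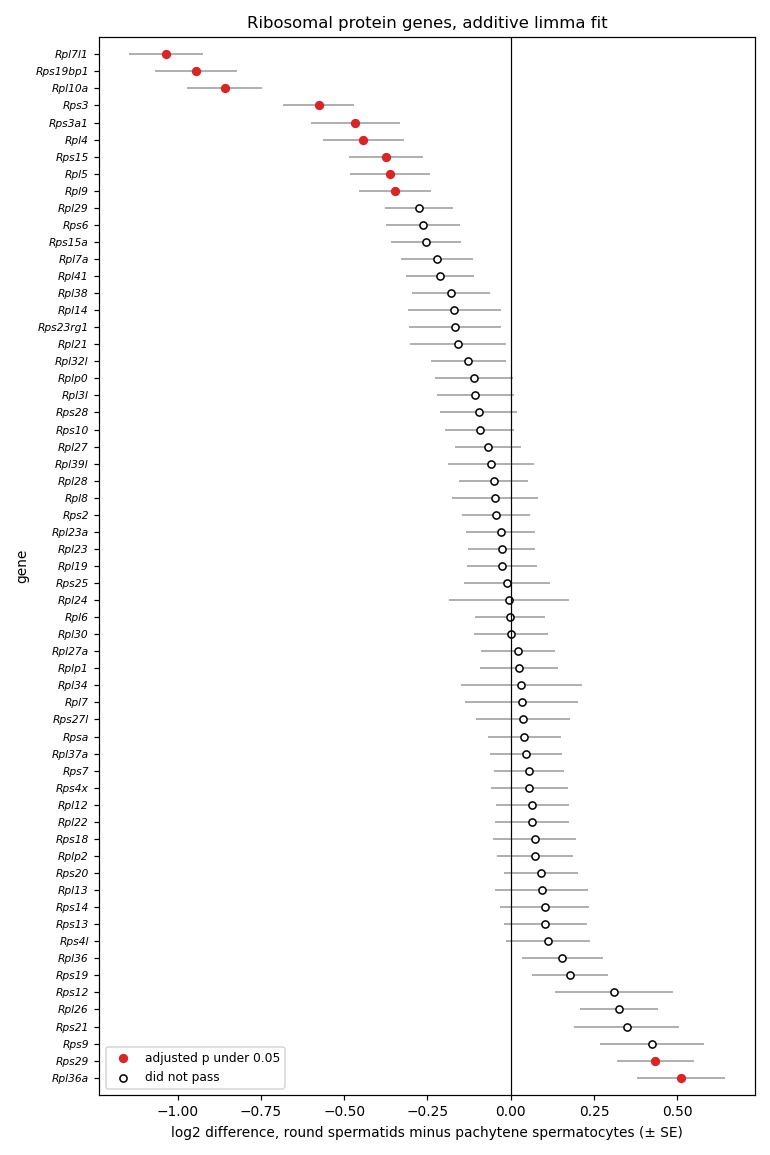
Log2 difference between round spermatids (2 arrays) and pachytene spermatocytes (4 arrays) for each of the 61 genes, with bars of 1 standard error from the additive limma fit. Filled points have an adjusted p under 0.05: 9 genes on the left, from Rpl7l1 to Rpl9, and Rps29 and Rpl36a on the right, while the other 50 lie closer to 0 or have wider errors.

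Among core proteins of the large subunit, 4 of 32 were lower in RS (17.1% of all genes tested) and 1 was higher (17.8%). The median difference was -0.03. Rpl10a, which encodes a protein of the mobile L1 stalk near the exit site for tRNA, had log2 intensities of 11.56 in KO RS and 11.19 in WT RS, against 12.26 and 12.29 in KO PS and 12.22 and 12.17 in WT PS. The stages did not overlap, and Rpl10a was 1.81-fold lower in RS (log2 -0.86, SE 0.11, 95% confidence interval -1.12 to -0.60, adjusted p = 0.000839 in limma, 2 against 4 arrays). Rpl4, whose protein lines the tunnel through which the new peptide leaves, stood at 10.91 in KO RS and 10.82 in WT RS, against 11.38 and 11.35 in KO PS and 11.09 and 11.41 in WT PS. It was lower by a smaller amount and again without overlap (log2 -0.44, SE 0.12, adjusted p = 0.0247). Rpl5, whose protein carries the 5S ribosomal RNA into the subunit, stood at 10.73 in KO RS and 10.79 in WT RS, against 11.28 and 11.06 in KO PS and 11.16 and 11.00 in WT PS (log2 -0.36, SE 0.12, adjusted p = 0.0488). Rpl9 stood at 11.83 on both RS arrays, against 12.19 and 12.11 in KO PS and 12.28 and 12.12 in WT PS (log2 -0.35, SE 0.11, adjusted p = 0.0383). Both genes were lower on either RS array than on any PS array, and Rpl5 passed by a small margin.

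The large-subunit gene that was higher in RS was X-linked. Rpl36a stood at 9.29 in KO RS and 9.05 in WT RS, against 8.92 and 8.55 in KO PS and 8.64 and 8.52 in WT PS. It was 1.43-fold higher (log2 0.51, SE 0.13, 95% confidence interval 0.21 to 0.82, adjusted p = 0.018), with no overlap. The second X-linked member, Rps4x of the small subunit, stood at 8.74 in KO RS and 8.56 in WT RS, against 8.51 and 8.74 in KO PS and 8.61 and 8.51 in WT PS. Its stages overlapped and it did not pass (log2 0.06, 95% confidence interval -0.21 to 0.32, adjusted p = 0.764).

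Of the 21 core proteins of the small subunit, 3 were lower in RS (17.1% of all genes tested) and 1 was higher (17.8%). The median difference was 0.06. Rps3, whose protein sits where mRNA enters the subunit, stood at 9.31 in KO RS and 9.35 in WT RS, against 9.92 and 9.93 in KO PS and 9.98 and 9.80 in WT PS. Both RS arrays lay below every PS array, and Rps3 was 1.49-fold lower (log2 -0.58, SE 0.11, 95% confidence interval -0.83 to -0.33, adjusted p = 0.004). Rps15, a protein of the head of the subunit, stood at 12.25 in KO RS and 12.12 in WT RS, against 12.58 and 12.46 in KO PS and 12.58 and 12.62 in WT PS (log2 -0.37, SE 0.11, adjusted p = 0.0317). Rps3a1 passed as lower (log2 -0.47, SE 0.14, adjusted p = 0.0289), but its stages overlapped: it stood at 8.95 in KO RS and 8.28 in WT RS, against 9.34 and 9.09 in KO PS and 8.96 and 8.93 in WT PS. The WT RS array alone was below all PS arrays for this gene.

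Rps29, a small protein of the head of the 40S subunit, was the small-subunit gene that was higher in RS. It stood at 11.21 in KO RS and 11.30 in WT RS, against 10.77 and 10.71 in KO PS and 11.03 and 10.77 in WT PS. Both RS arrays lay above every PS array (1.35-fold, log2 0.43, SE 0.12, 95% confidence interval 0.17 to 0.70, adjusted p = 0.0205). In humans, Rps29 and Rpl5 belong to the genes mutated in Diamond-Blackfan anaemia, a failure of red cell production. Of 19 genes on that list, 9 were tested, and those 2 were the ones that passed (22.222%, against 34.9% of all genes tested).

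**Figure D2:**
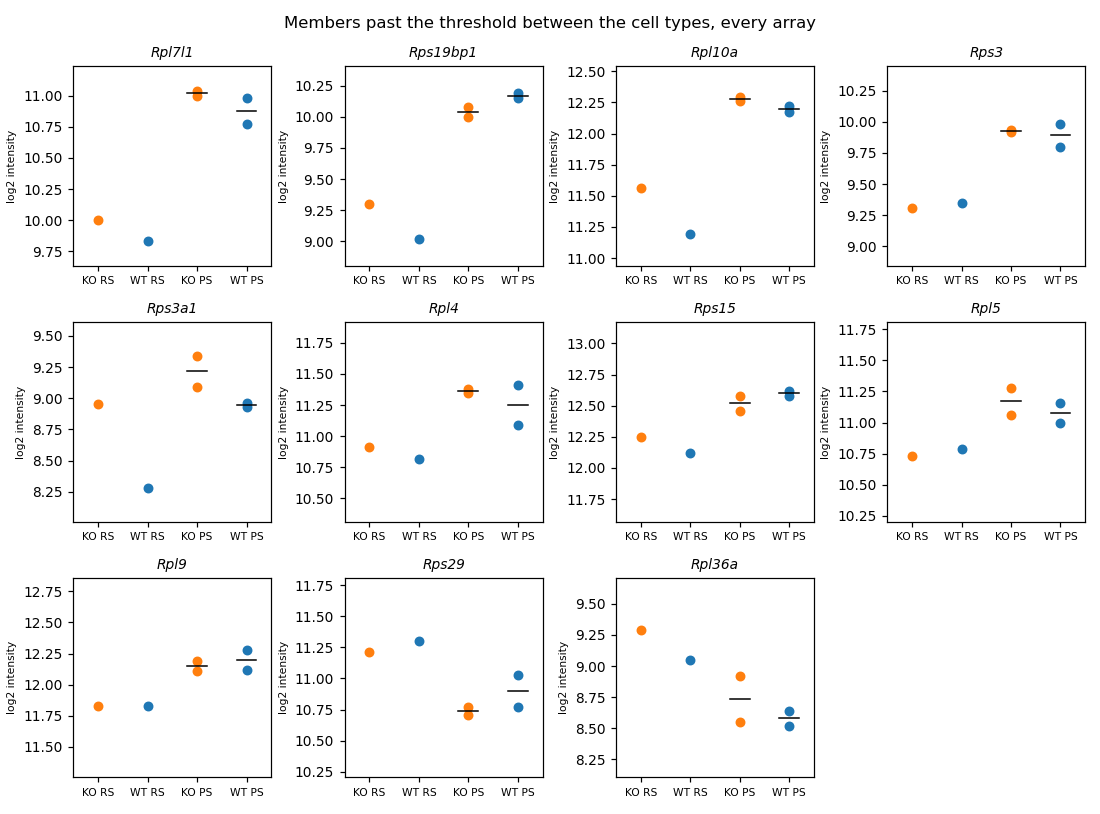
Log2 intensity of the 11 genes that passed between the stages, with 1 point per array and a line at the mean of each pair of pachytene arrays; orange is KO and blue is WT. The vertical axes differ between panels. For Rps3a1 the KO round spermatid point lies within the range of the pachytene points, and for the other 10 genes no round spermatid point does.

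The 3 stalk proteins, which recruit the elongation factors to the ribosome, did not pass. Rplp0, the base of the stalk, stood at 13.03 in KO RS and 12.93 in WT RS, against 13.04 and 13.23 in KO PS and 13.16 and 12.94 in WT PS (log2 -0.11, 95% confidence interval -0.38 to 0.16). Its partners Rplp1 and Rplp2 differed by 0.03 and 0.07, and all 3 overlapped between the stages. Rplp2 was dim, at 7.44 in KO RS and 7.23 in WT RS, and between 7.13 and 7.35 in PS. On every array it lay under the median of all clusters, so its small difference says little.

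The 8 genes outside the core held the 2 largest differences of the whole family. Rpl7l1 encodes a paralog of the large-subunit protein Rpl7, and in human cells its product is found in ribosome precursors in the nucleolus. It stood at 9.997 in KO RS and 9.83 in WT RS, against 11.04 and 11.00 in KO PS and 10.77 and 10.98 in WT PS, and was 2.05-fold lower in RS (log2 -1.03, SE 0.11, 95% confidence interval -1.29 to -0.78, adjusted p = 0.000372). Rps19bp1 encodes a nucleolar protein that binds Rps19 and is no part of the ribosome. It stood at 9.30 in KO RS and 9.02 in WT RS, against 10.08 and 10.004 in KO PS and 10.15 and 10.19 in WT PS, and was 1.92-fold lower (log2 -0.94, SE 0.12, 95% confidence interval -1.23 to -0.66, adjusted p = 0.000832). For both genes the RS arrays lay well below every PS array.

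The other paralogs did not pass between the stages. Rpl39l, a paralog of Rpl39 that mouse male germ cells place in their ribosomes, stood at 11.04 in KO RS and 11.15 in WT RS, against 11.18 and 10.83 in KO PS and 11.31 and 11.29 in WT PS (log2 -0.06, 95% confidence interval -0.36 to 0.24). Rpl3l, which in the mouse replaces Rpl3 in striated muscle, was among the dimmer members, between 6.40 and 6.60 in RS and between 6.51 and 6.69 in PS, and its stages overlapped. Rps27l differed by 0.04 and Rps4l by 0.11. The parent genes Rpl7 and Rpl22 differed by 0.03 and 0.06.

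A paralog and its parent were both measured for 2 pairs. The log2 ratio of Rpl7l1 over Rpl7 within an array was lower by 1.07 in RS (RS minus PS -1.07) and lay below every PS ratio on both RS arrays. The exact two-sided permutation test gave p = 0.0667, the smallest that 2 against 4 arrays can give, and 0.133 adjusted over the 2 pairs. For Rps4l over Rps4x the difference was 0.06 (p = 0.6 in the same exact test, adjusted 0.6). That ratio rests on the brighter cluster of Rps4l, which differed by 0.11 between the stages. The other Rps4l cluster differed by 0.35, and both RS arrays lay above every PS array for it. The small difference in the ratio therefore holds for the cluster used.

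The size of the shift within each genotype rests on 1 RS array against 2 PS arrays, whose lone RS array is assumed to vary like the PS arrays. In KO cells 3 members passed (15.5% of all genes tested) and in WT cells 3 passed (20% of all genes tested). All were lower in RS (7.18% of all genes tested in KO and 8.45% in WT), and in both genotypes they were Rpl7l1, Rps19bp1 and Rpl10a. Log2 differences between RS and PS in KO and in WT were -1.02 and -1.04 for Rpl7l1, -0.74 and -1.15 for Rps19bp1, and -0.71 and -1.01 for Rpl10a. For none of the 61 did the difference between the genotypes pass (limma interaction, 0% of all genes tested, smallest adjusted p among members 0.9999, 0 members and 0.725% of all genes at an unadjusted p under 0.05). With 1 of the RS arrays left out, the additive fit gives these within-genotype results again, so the other 8 calls needed both RS arrays. Without WT PS array 2, 4 of the 11 passed, Rps3 in addition to those 3 (27.5% of all genes tested), and without WT PS array 1, 7 passed (28.5%).

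Near-identical copies limit what a ribosomal protein cluster measures. The 61 genes had 212 single-gene clusters: 23 had 1 cluster and 38 had several, up to 14 for Rps12. The sources used here do not say which copies of a gene the probes of a cluster match, and ribosomal protein genes have many processed pseudogenes. Clusters of the same gene mostly moved alike: in 27 of the 38 genes all clusters had the same sign of RS minus PS, and the median spread between them was 0.07 on the log2 scale. The spread exceeded 0.2 in 6 genes and was largest in Rpl23a, at 0.63. In 5 genes, 19 clusters had values equal to another cluster of the gene to 3 decimals of log2. The 4 clusters of Rpl10a lay between -0.90 and -0.84, the 8 of Rpl9 between -0.43 and -0.33, the 5 of Rpl5 between -0.47 and -0.36, the 3 of Rps15 between -0.41 and -0.32, the 4 of Rps29 between 0.43 and 0.46 and the 2 of Rpl36a between 0.32 and 0.51. Clusters that share copies are not independent measurements of one gene. Rpl7l1, Rps19bp1, Rps3, Rps3a1 and Rpl4 had 1 cluster each.

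**Figure D3:**
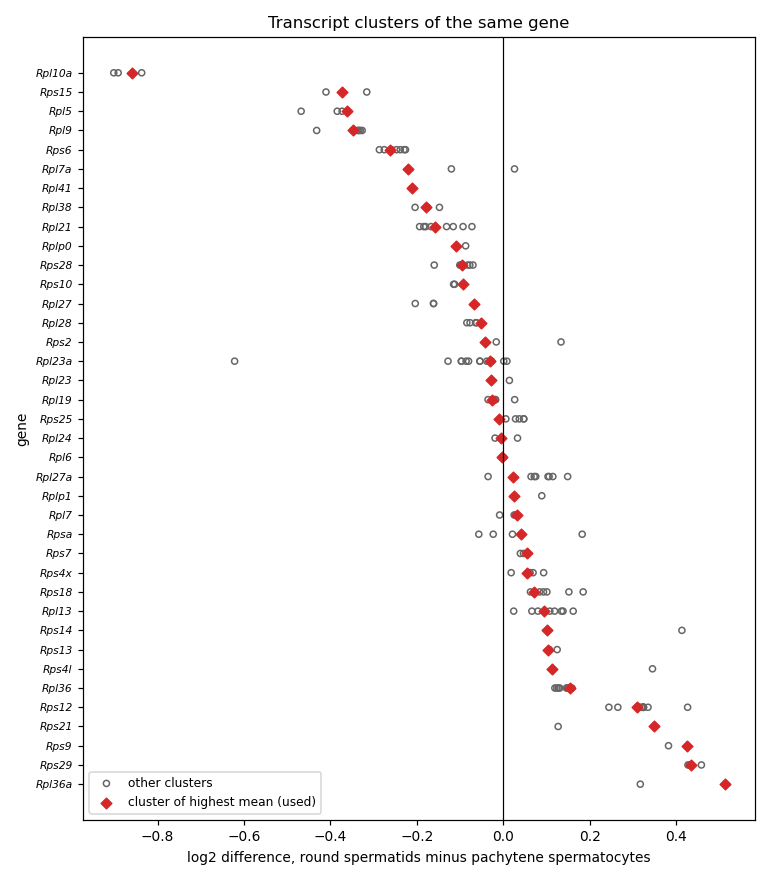
Log2 difference between round spermatids and pachytene spermatocytes for every cluster of the 38 genes with several clusters, the used one in red. Clusters of Rpl10a lie together near -0.9 and those of Rps29 near 0.4, while 1 cluster of Rpl23a lies far from its others.

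The TOP run can be looked for in the genome sequence around the start of each gene. RefSeq (GRCm38.p6) gave 58 windows of 300 bases, 250 before and 50 after an annotated start, for 49 of the 61 members. A run of 8 or more C and T letters that reached within 10 bases of the start was found on the gene's strand in 21 of the 58 windows (36.207%), in 13.689% of 32851 windows of all genes and in 12.162% of the windows of mitochondrial ribosomal protein genes. Annotated starts need not be the true cap site, so a window without a run says only that these letters are not there. The following are 100 bases before and 20 after the start, shown because they include the longest run found, in Rpl7a, and genes that passed between the stages with and without a run. Capitals mark the longest run of C and T near the start.
Rpl7a, chr2:26910707-26910826, plus strand: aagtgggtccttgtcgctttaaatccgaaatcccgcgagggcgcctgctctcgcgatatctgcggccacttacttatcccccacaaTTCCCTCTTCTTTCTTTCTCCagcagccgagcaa
Rpl4, chr9:64173287-64173406, plus strand: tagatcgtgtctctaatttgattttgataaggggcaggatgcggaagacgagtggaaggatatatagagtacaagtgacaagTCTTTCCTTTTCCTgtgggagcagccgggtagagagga
Rpl10a upstream start, chr17:28328371-28328490, plus strand: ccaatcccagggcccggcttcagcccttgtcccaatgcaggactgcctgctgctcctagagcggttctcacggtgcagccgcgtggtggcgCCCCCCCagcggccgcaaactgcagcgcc
Rpl10a downstream start, chr17:28328465-28328584, plus strand: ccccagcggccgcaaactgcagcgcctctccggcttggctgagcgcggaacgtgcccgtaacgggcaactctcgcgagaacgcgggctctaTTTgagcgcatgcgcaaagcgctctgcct
Rps3, chr7:99483690-99483809, minus strand: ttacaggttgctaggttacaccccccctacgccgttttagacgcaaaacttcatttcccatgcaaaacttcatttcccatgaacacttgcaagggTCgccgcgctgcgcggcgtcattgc
Rpl36a, chrX:134585554-134585673, plus strand: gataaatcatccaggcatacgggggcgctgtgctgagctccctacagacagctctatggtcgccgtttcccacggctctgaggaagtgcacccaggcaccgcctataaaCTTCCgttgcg
Rpl7a itself did not pass between the stages (log2 -0.22, adjusted p = 0.162). Its run had 21 letters and that of Rpl4, which was lower in RS, had 14, while the longest runs were 7 letters at 1 start of Rpl10a, 3 at its other start, 2 at Rps3 and 5 at Rpl36a. By gene, the 7 core genes that were lower in RS had 1 with a run of 8 or more, the 1 core gene with a window that was higher had 0, and the 34 that did not pass had 16. These counts take the longest run over a gene's windows, and the matching share over all genes was not measured. A link between the run and the difference between the stages was not tested. The motif CCGGAAG, searched on both strands, was in 34.483% of the members' windows, in 33.784% of those of mitochondrial ribosomal protein genes and in 8.858% of all windows. GGGCGG was in 55.172% against 35.658% of all windows, AAGATGG in 8.621% against 6.338% and TATAA in 22.414% against 24.873%, each on both strands.

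Loss of Rnf8 gave no member that passed. In pachytene spermatocytes 0 of 61 passed for KO against WT in limma (0% of all genes tested), 1 member had an unadjusted p under 0.05 (2.4% of all genes), and the median difference was 0.01 against 0.03 over all genes. The difference was under 0.25 in size for 58 of 61 members. The share of all genes tested under 0.25 was not measured, so the count does not set the members apart. Standard errors lay between 0.14 and 0.23, and the smallest change that 2 arrays per genotype could detect over all genes was not measured. The largest member difference, 0.63, did not pass. Both KO arrays lay above both WT arrays for 6 members (14.9% of all genes tested) and below them for 8 (10.2%).

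The largest genotype difference in PS was that of Rps9, a small-subunit protein near the decoding centre. It stood at 11.02 and 10.97 in KO PS, against 10.58 and 10.15 in WT PS, with no overlap (log2 0.63, SE 0.18, 95% confidence interval 0.20 to 1.05, adjusted p = 1 in limma). In RS it stood at 11.21 in KO and 11.00 in WT, a difference of 0.21. The second Rps9 cluster differed less in both cell types. That cluster stood at 10.48 and 10.32 in KO PS against 9.98 and 10.04 in WT PS, and at 10.63 in KO RS against 10.54 in WT RS. Rps3a1 lay at 0.27, Rps19 at 0.20 and Rpl7 at 0.18 in PS. Below WT were Rpl39l at -0.29, Rps2 at -0.24, Rpl30 at -0.22 and Rpl21 at -0.19, and none of these 8 genes passed. With single arrays left out, Rps9 lay between 0.41 and 0.84, Rps3a1 between 0.15 and 0.40, Rps19 between 0.10 and 0.31, and Rpl39l between -0.46 and -0.12. Rpl7 lay between -0.12 and 0.48 and Rpl21 between -0.43 and 0.05, so their sign rested on single arrays.

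In round spermatids, with 1 array per genotype, 0 members differed at least 2-fold (0.385% of all genes tested). Between these arrays 56 of 61 members differed by less than 0.25, a share not measured over all genes tested. A limma contrast that lends these arrays the spread of the PS arrays, run as an alternative, passed 0 members (0% of all genes tested), with 1 member and 1.79% of all genes at an unadjusted p under 0.05. Rps3a1 stood at 8.95 in KO against 8.28 in WT (log2 0.67), Rpl34 at 10.14 in KO against 9.55 in WT (0.59), Rpl10a at 11.56 in KO against 11.19 in WT (0.38) and Rps19 at 10.18 in KO against 9.84 in WT (0.34). The lowest differences were -0.24 for Rps13, -0.20 for Rpl14, and -0.14 each for Rps25 and Rpl21. For Rpl34 the KO and WT pachytene arrays overlapped, at 9.64 and 9.99 in KO against 9.98 and 9.63 in WT. These replicate pairs differed by 0.36 in KO and 0.35 in WT, and the RS difference itself has no replicate check.

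Over both cell types, 0 of 61 members passed for KO against WT (limma, 0% of all genes tested, 2 members and 5.46% of all genes at an unadjusted p under 0.05). Rps9 (log2 0.49, SE 0.15, adjusted p = 0.783) and Rps3a1 (0.41, SE 0.13, adjusted p = 0.824) had the largest values. For both, the KO PS arrays lay above the WT PS arrays, as for 14.9% of all genes tested. In RS this is 1 KO array above 1 WT array. Both genes were named for the size of this difference, so the order of their arrays adds no support.

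**Figure D4:**
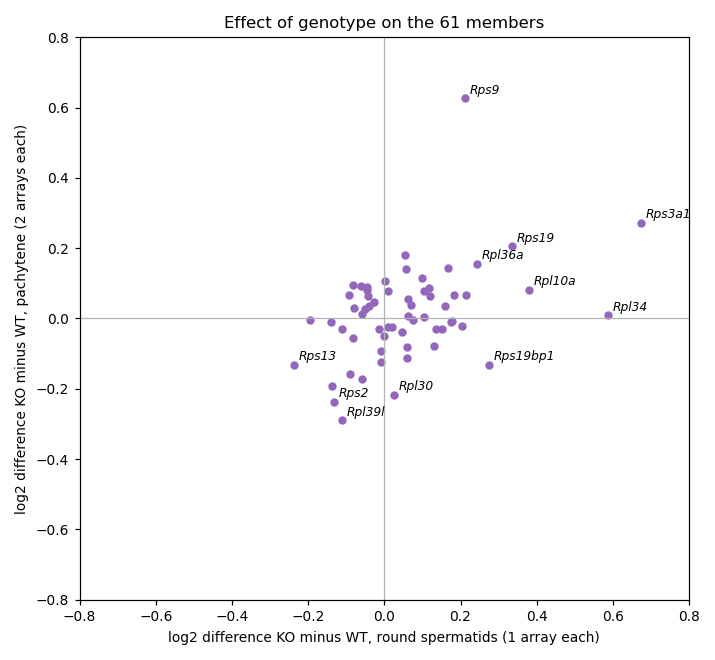
Log2 difference between KO and WT in pachytene spermatocytes (vertical, 2 arrays each) against that in round spermatids (horizontal, 1 array each) for the 61 genes, with the farthest points named. Most points lie within 0.25 of 0 on both axes, with Rps9 highest and Rps3a1 and Rpl34 farthest right.

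The share of genes that passed was larger among ribosome assembly genes than among the ribosomal proteins. Of 51 tested genes for ribosome assembly, 22 were lower in RS and 3 higher (49.02%, against 34.9% of all genes tested). The median of these assembly genes was -0.26, against -0.03 over the 61 members. They include Mphosph10 at -1.63, a nucleolar protein of the early small-subunit processome, the nucleolar GTPase Gnl2 at -1.48, the 5S assembly factor Rrs1 at -1.32 and the kinase Riok2 at -1.04, each past the threshold. Of 77 mitochondrial ribosomal protein genes, 22 were lower and 6 higher (36.364%, near the 34.9% of all genes tested), with a median of -0.17. Among them Mrpl45 lay at -1.48, Mrpl9 at -1.20, Mrps23 at -1.01 and Mrps36 at 1.34. Fau, which encodes a core protein of the small subunit fused to a ubiquitin-like protein, lay at 0.09 and did not pass. The difference between these lists was not tested.

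Translation factors and other genes with TOP mRNAs mostly did not pass (13.333% did, against 34.9% of all genes tested). Of 15 tested, Eef1d was higher (0.86) and Eef1b2 was lower (-0.39), and the median was 0.03. Of 15 tested genes that control ribosomal protein mRNA, 4 were lower and 2 higher (40%, near the 34.9% of all genes tested). The mTOR partner Mlst8 lay at -1.38, the transcription factor Yy1 at -1.29, the poly(A)-associated Larp4 at -0.90 and the nucleic acid-binding Cnbp at -0.41, against 0.66 for the mTORC1 scaffold Rptor and 0.55 for the cap-binding inhibitor Eif4ebp1. In KO against WT pachytene spermatocytes, 0 genes of these 4 lists passed. All such lists were chosen with earlier results of these data known.

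**Figure D5:**
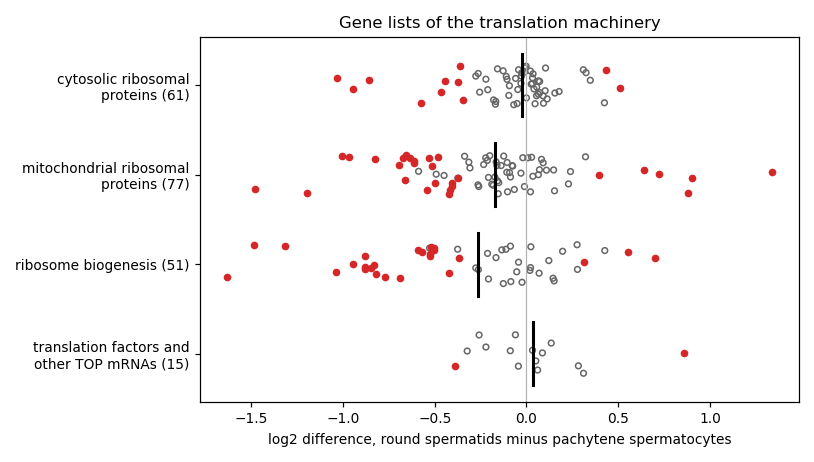
Log2 difference between round spermatids and pachytene spermatocytes for the tested genes of 4 lists, 1 point per gene and a bar at the median; filled red points have an adjusted p under 0.05. The medians are -0.03, -0.17, -0.26 and 0.03 from top to bottom; 11, 28, 25 and 2 points are filled.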

How the data were processed

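The 6 arrays (Affymetrix MoGene 1.0 ST) hold biotin-labelled sense-strand cDNA of total RNA. The deposited values are linear intensity per transcript cluster, which the authors computed using RMA in Affymetrix Expression Console 1.1, according to the submitters' processing notes. The sources used here give no build and no RMA options. RMA usually brings arrays to one distribution, so levels are relative to each array's total. Median intensity was between 197 and 218 per array. With arrays, precision depends on how many there are.

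Of 35556 clusters, 21789 have 1 gene symbol in the platform annotation, 1621 have several and 12146 are unlisted. By gene identifier 21698 single-gene clusters, and all 61 members, matched RefSeq GRCm38.p6. The cluster of highest mean stood for each gene, log2 was taken, and the 17925 genes that reached log2 6 on any array were tested with limma 3.58.1 in R 4.3.3 (lmFit, eBayes, Benjamini-Hochberg, threshold 0.05). Genotype and cell type were fitted additively for their overall effects. A fit with 4 groups gave the comparisons within a genotype or cell type and the interaction. KO against WT in RS has 1 array each, so it is given by size, and the limma contrast with the spread of the PS arrays is an alternative. Alternatives were other filters, normalizations, priors and clusters, each array left out, and the replicate number as a block.

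Genes named are paralogs with their parents, X-linked members, stalk proteins, the members with the largest differences (up to 8 per direction between cell types, without overlap, and 4 per direction for genotype) and up to 4 genes per other list. Values of Rpl7a, Rps12 and Rpl23a outside that rule, and of Cnbp and Eif4ebp1, were chosen after their values were seen. The members and lists were chosen with earlier results of these data known. Deviations of same-numbered pachytene arrays from their group mean correlated at -0.23 across genes, so over all genes same-numbered arrays did not deviate alike. What lies behind the negative sign was not tested.

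Scripts were tested on simulated data for the cell type comparison, with 100 of 17925 genes changed at each size: 18% of changes of 0.5 and 97% of changes of 1.0 on the log2 scale were recovered, with 12 false calls. Far fewer genes were changed than passed in the data, which makes the adjusted threshold stricter, so these shares do not carry over to it.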

Additional observations from a re-analysis of the deposited data

How the results depend on the processing

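For round spermatids against pachytene spermatocytes, 11 members passed, and between 3 and 15 passed when 1 array was left out, while the share of all genes tested lay between 15.5% and 49.4% (34.9% with all arrays). Rpl7l1, Rps19bp1 and Rpl10a passed in all 14 alternatives run, Rps3 in 12, Rpl4 and Rps29 in 11, Rpl36a in 10, Rpl9 and Rps3a1 in 9, Rps15 in 8 and Rpl5 in 7. With the replicate number as a block 10 passed (30% of all genes tested), 5 higher and 5 lower against 2 and 9. Of these, 7 were the same genes (Rpl5, Rpl9, Rps15 and Rps3a1 did not pass), and Rps12, Rps21 and Rps9 were added. Both RS arrays have replicate number 2, while each PS group has numbers 1 and 2. The number is therefore partly confounded with cell type, and the 2 cannot be fully told apart. With each gene's dimmest cluster, chosen after seeing the data, 9 passed (34.6% of all genes tested). There Rpl36a, Rpl5 and Rps15 did not pass, and Rps9 was added. Within WT, 3 passed, against 5 after a second quantile normalization, 1 without Rps19bp1 and the paralogs, and between 0 and 7 with 1 array left out. Within KO, 3 passed, against 1 with the replicate block, 1 without Rps19bp1 and the paralogs, and between 1 and 5 with 1 array left out. KO against WT passed 0 members under each alternative run, and the pairing by crossed numbers, added after seeing the data, also passed 0.

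Signs near 0 turned. With the replicate block Rpl39l lay at 0.034 between the cell types, and after a second quantile normalization Rplp1 lay at -0.069 and Rps27l at -0.038. With 1 array left out, values between the cell types lay between -0.006 and 0.136 for Rpl22, -0.147 and 0.029 for Rpl39l, -0.218 and 0.006 for Rpl3l, -0.104 and 0.151 for Rpl7, -0.036 and 0.088 for Rplp1, -0.001 and 0.147 for Rplp2, -0.055 and 0.136 for Rps27l and -0.002 and 0.114 for Rps4x. For KO against WT in pachytene spermatocytes they lay between -0.429 and 0.048 for Rpl21 and -0.117 and 0.477 for Rpl7. None of these passed. Member medians lie near 0 and turned too: between the cell types to 0.007 with the block and 0.014 with the dimmest cluster, and within KO to 0.023 and 0.001, and with 1 array left out they lay between -0.059 and 0.03 within KO, -0.045 and 0.037 for KO against WT in pachytene spermatocytes (-0.005 with the dimmest cluster, -0.026 after median centring) and -0.018 and 0.053 for KO against WT over both cell types (-0.002 after median centring). The causes were not tested.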

Other observations

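The pachytene replicate arrays differed in ribosomal protein genes. The median of array 1 minus array 2 was 0.05 in KO and 0.10 in WT over the members, and -0.07 in KO and -0.01 in WT over all genes tested. The members named here were chosen after their values were seen. The difference was 0.46 in KO and 0.47 in WT for Rps12, and 0.49 in KO and 0.46 in WT for Rpl24. It was 0.23 in KO and 0.24 in WT for Rps13, 0.19 in KO and 0.30 in WT for Rpl8, and 0.17 in KO and 0.59 in WT for Rpl7. Across the 61 members the 2 differences correlated at -0.13, and across all genes at -0.23, both given as descriptions across genes that share arrays. No label ties the numbers to a preparation or day.

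Among the brightest clusters of each array, 15 of 61 members (24.59%) lay at or above the 95th percentile on each RS array, and 18 to 19 on each PS array. The percentile was taken over all clusters of the array, while each member is the brightest cluster of its gene. The share over all genes chosen in that way was not measured, so the count does not set the members apart. No test was made of this count.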
